A study of Homo sapiens with 24 samples.

Results

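EGR1, EGR2 and EGR3 (early growth response zinc-finger transcription factors), their corepressors NAB1 and NAB2, the immediate early response genes IER2, IER3 and IER5, and PHLDA1 were followed in renal carcinoma cells given the kinase inhibitor dasatinib. These 9 genes were taken as a group by name, with earlier results of the same arrays known. Each was read from its probe set chosen by the highest mean log2 signal over all 24 arrays, among probe sets that name that gene alone. Of the 9 genes, 8 were measured (26 probe sets in all), out of 18132 genes measured, and EGR2 was not analysed here. The means that chose the probe sets ran from 5.61 for EGR3 to 11.13 for IER3 on the log2 scale. They are given as a description, since probe sets differ in affinity and do not rank genes.

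Expression was measured on Affymetrix PrimeView arrays in Caki-1, an established line from a skin metastasis of a renal cell carcinoma, and in 769-P, an established line from a primary renal tumour. Each line was given the vehicle DMSO, or dasatinib at 1 µM for 6, 12 or 24 h, which made 8 groups with 3 arrays each, called biological replicates in the labels. Dasatinib inhibits SRC family and ABL kinases among others. The DMSO arrays carry no time, so all 3 times in a line were compared with 1 shared set of 3 DMSO arrays, and hours of drug and hours of culture cannot be told apart. The labels do not say how the cultures were kept separate, so p-values measure the spread between these arrays, which may be partly technical.

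Immediate-early genes are switched on by growth factor and stress signals without new protein synthesis, largely through ERK and other MAP kinases acting on the serum response factor SRF and its ETS-family partners. EGR proteins bind GC-rich sites and activate further genes, among them those for NAB1 and NAB2, which bind EGR1 and EGR2 proteins and hold back their activity. In growing tumour cells such genes report on signalling from receptor and SRC family kinases.

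Upstream sequences from RefSeq (GRCh38.p14) are shown for EGR1 and for the NAB genes, because EGR1 had the largest change of the members against DMSO (in Caki-1 at 24 h) and the NAB genes are its known feedback partners. RefSeq windows were matched by symbol for 7 of the 9 genes, and EGR3 and IER3 had none. In the same build EGR1 lies at chr5:138465479-138469303, NAB2 at chr12:57089114-57095476, NAB1 at chr2:190648895-190692766, IER2 at chr19:13150411-13154911, IER3 at chr6:30743199-30744547, IER5 at chr1:181088700-181092900 and PHLDA1 at chr12:76025447-76031776. Each line below gives the 250 bases before an annotated start, 5′ to 3′ on the strand of the gene, with CArG boxes (the SRF-binding motif) and EGR sites (GCGTGGGCG or GCGGGGGCG, either strand) in capitals. The windows, each ending 1 base before the annotated start, are chr5:138465229-138465478 for EGR1, chr12:57088864-57089113 for NAB2 and chr2:190648645-190648894 for NAB1, all on the plus strand.
EGR1: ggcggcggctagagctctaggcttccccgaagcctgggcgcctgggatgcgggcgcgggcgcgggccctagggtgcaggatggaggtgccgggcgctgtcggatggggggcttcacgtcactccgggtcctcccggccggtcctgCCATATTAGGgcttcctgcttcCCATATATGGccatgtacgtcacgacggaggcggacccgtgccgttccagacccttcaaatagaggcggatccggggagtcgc
NAB2: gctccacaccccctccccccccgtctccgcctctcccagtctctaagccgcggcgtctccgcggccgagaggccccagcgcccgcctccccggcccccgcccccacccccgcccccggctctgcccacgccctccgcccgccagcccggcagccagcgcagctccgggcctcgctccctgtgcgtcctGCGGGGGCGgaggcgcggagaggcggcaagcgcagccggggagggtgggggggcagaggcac
NAB1: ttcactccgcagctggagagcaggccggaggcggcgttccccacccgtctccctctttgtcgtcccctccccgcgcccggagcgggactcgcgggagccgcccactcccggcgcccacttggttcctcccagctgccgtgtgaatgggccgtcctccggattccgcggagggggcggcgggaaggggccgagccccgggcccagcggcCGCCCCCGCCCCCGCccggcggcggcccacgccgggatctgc

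The EGR1 window held 2 CArG boxes, from 105 to 96 and from 83 to 74 bases before the start, where 1.16% of 35116 such windows held any. A window of EGR2, whose expression was not analysed, held 1, from 71 to 62 bases before its start. The EGR1 window held no EGR site with these letters. The NAB2 window held 1 EGR site, from 62 to 54 bases before the start, and this NAB1 window 2 overlapping ones, from 42 to 34 and from 36 to 28. A window at another annotated NAB1 start, which overlaps this one, held 3 EGR sites, and a further NAB1 window held none. Such a site occurred in 5.37% of windows. The windows of IER2, IER5 and PHLDA1 held neither motif, and each held 1 ETS core (CCGGAA, either strand), which 14.5% of windows held. No ETS core with these letters lay in the EGR1, NAB1 or NAB2 windows. A match is a description of the letters, not of a bound site.

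Array medians lay between 6.007 and 6.082, and arrays of a group correlated at 0.9928 to 0.9975, so no array stood apart by these measures. In single members array 1 of Caki-1 at 12 h lay below its group, for IER2 (8.84 against 9.27 and 9.39) and NAB1 (10.53 against 10.87 and 10.83). Of 8 renal epithelial markers measured, 7 in Caki-1 and 8 in 769-P lay above the filter on dim genes (the 40th percentile of all probe sets in a line), with EPCAM below it in Caki-1. Of other cell types, 5 of 7 leukocyte markers measured lay above the filter in Caki-1 and 4 of 7 in 769-P, as did 2 and 3 of 6 endothelial markers and 4 and 3 of 5 fibroblast and smooth muscle markers. CD3E, CD68, LST1, TYROBP, PECAM1, VWF, PDGFRB, ACTA2 and DES were above it in both lines, and PTPRC, ITGAM, CDH5, TEK, CLDN5 and COL3A1 below it in both.

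EGR1 climbed in Caki-1 at every time and in 769-P first fell and then rose past its DMSO level. In Caki-1 the log2 signals were 5.49, 6.05 and 6.03 under DMSO, 6.81, 7.21 and 6.97 at 6 h, 8.42, 8.28 and 8.31 at 12 h, and 9.19, 9.01 and 9.02 at 24 h. No array of one of these groups overlapped the next. The changes against DMSO were 1.15 ± 0.14 (SE, n = 3 arrays per group, as for every change below) at 6 h, 2.49 ± 0.14 at 12 h and 3.22 ± 0.14 at 24 h, or 2.21-fold, 5.6-fold and 9.3-fold. The adjusted p-values in limma were 2.9e-05, 6.5e-09 and 1.5e-10. "Rose" and "fell" below are used of an adjusted p under 0.05 in limma, adjusted over all genes tested. Groups without overlap were common, since 40.4%, 58.3% and 66.8% of genes tested had none with DMSO at 6, 12 and 24 h in Caki-1. In 769-P these shares were 43%, 54.1% and 60.6%. The array reads pooled cells, so more RNA per cell and more cells with the RNA cannot be told apart. The mean of 5 fibroblast and smooth muscle markers lay between 5.96 and 6.00 under DMSO and between 6.48 and 6.53 at 24 h in Caki-1, where EGR1 climbed too, and between 6.46 and 6.74 on the 769-P arrays. That of 6 endothelial markers went from 5.04 to 5.22 under DMSO to 5.35 to 5.68 at 24 h in Caki-1. Their part in the EGR1 result was not tested.

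In 769-P the EGR1 signals were 6.82, 7.01 and 6.21 under DMSO, 5.56, 5.47 and 5.64 at 6 h, 6.4, 6.94 and 6.61 at 12 h, and 8.15, 8.29 and 7.87 at 24 h. The 6 h arrays all lay below DMSO, those at 12 h overlapped it, and those at 24 h all lay above it. EGR1 fell by 1.12 ± 0.18 at 6 h (adjusted p = 2.0e-04 in limma), stood at -0.03 ± 0.18 at 12 h (95% interval -0.42 to 0.36), and rose by 1.42 ± 0.18 at 24 h (adjusted p = 5.9e-06 in limma). Without the DMSO arrays, EGR1 rose by 1.09 ± 0.18 from 6 h to 12 h and by 1.46 ± 0.18 from 12 h to 24 h in 769-P, and by 1.34 ± 0.14 and 0.73 ± 0.14 in Caki-1. The order of group means ran from 9.07 in Caki-1 at 24 h down to 5.56 in 769-P at 6 h. In that order Caki-1 at 12 h and 769-P at 24 h overlapped, as did Caki-1 at 6 h with 769-P under DMSO, the latter with 769-P at 12 h, and Caki-1 under DMSO with 769-P at 6 h.

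**Figure D1:**
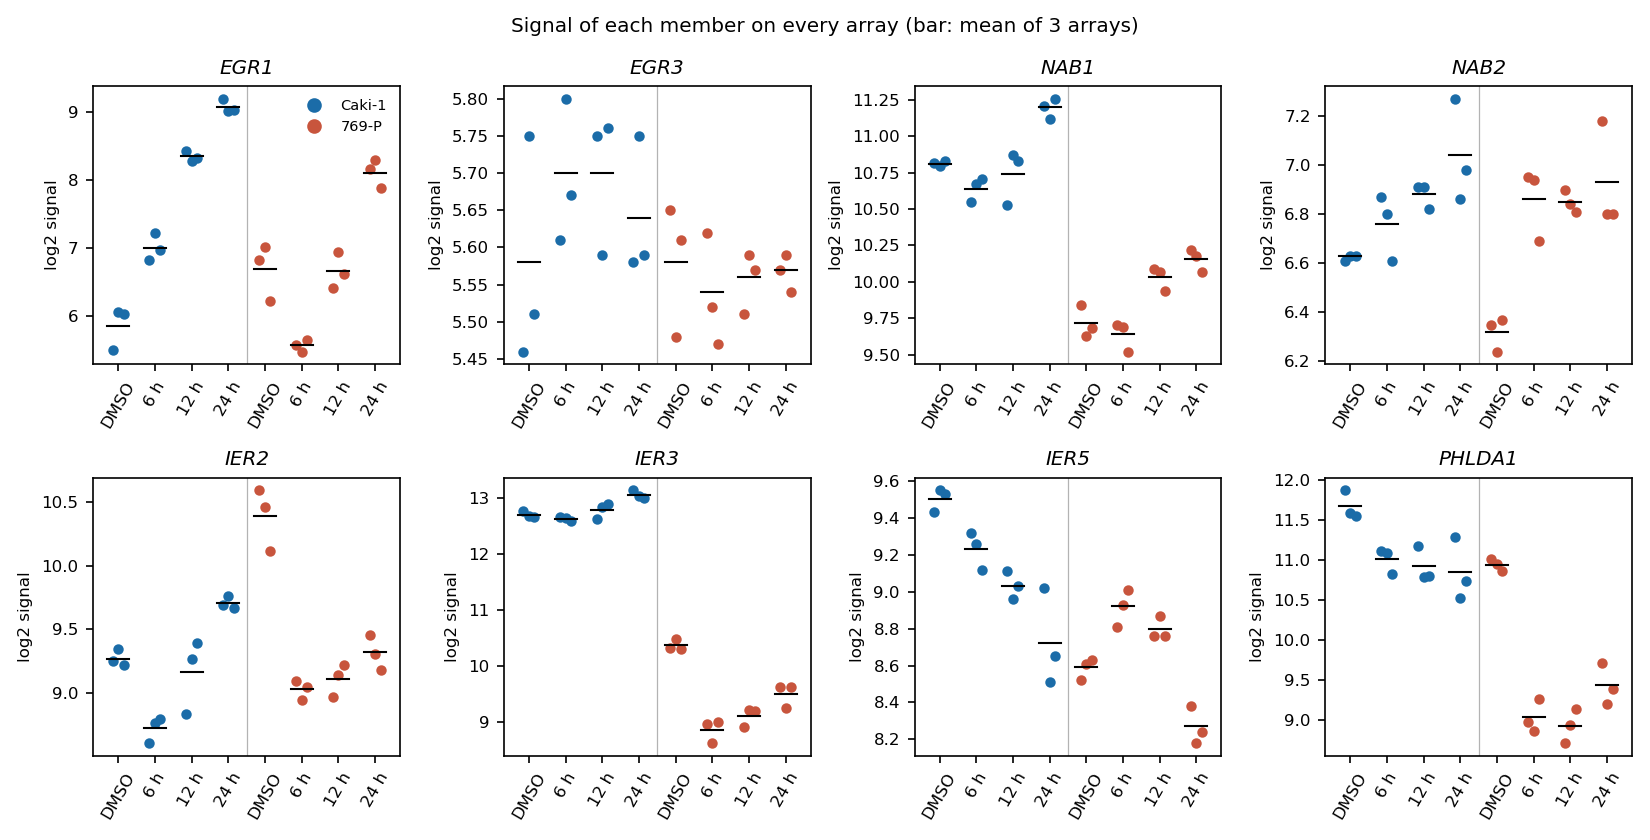
Log2 signal of the 8 measured genes on all 24 arrays, by line and treatment, with each point an array, each bar the mean of 3 arrays, and a y scale of its own in every panel. EGR1 climbs from 5.85 to 9.07 in Caki-1 and dips to 5.56 before reaching 8.10 in 769-P, while EGR3 stays between 5.46 and 5.80 throughout.

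The 6 probe sets of EGR1 did not agree in size. The 3 brightest, with means of 7.16, 6.83 and 6.63, correlated at 0.98 to 0.99 over the 24 arrays and gave changes of 3.22, 4.06 and 2.81 at 24 h in Caki-1. In 769-P the same 3 gave -1.12, -1.32 and -0.75 at 6 h and 1.42, 1.84 and 1.27 at 24 h. The other 3, with means of 6.17, 5.02 and 4.50, gave 0.48, 0.69 and 0.44 at 24 h in Caki-1, and -0.15, 0.29 and 0.10 at 24 h in 769-P. The means of 5.02 and 4.50 lay below the filter on dim genes. The probe set with a mean of 6.17 lay above it and correlated with the brightest at 0.79 in Caki-1 and -0.41 in 769-P, over 12 arrays each. With the mean of all 6 probe sets, the EGR1 changes were 0.74, 1.43 and 1.95 in Caki-1 and -0.59, 0.02 and 0.79 in 769-P, with the same calls. In every probe set the Caki-1 value was positive at all 3 times, whereas at 24 h in 769-P 1 of the 6 was below 0.

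**Figure D2:**
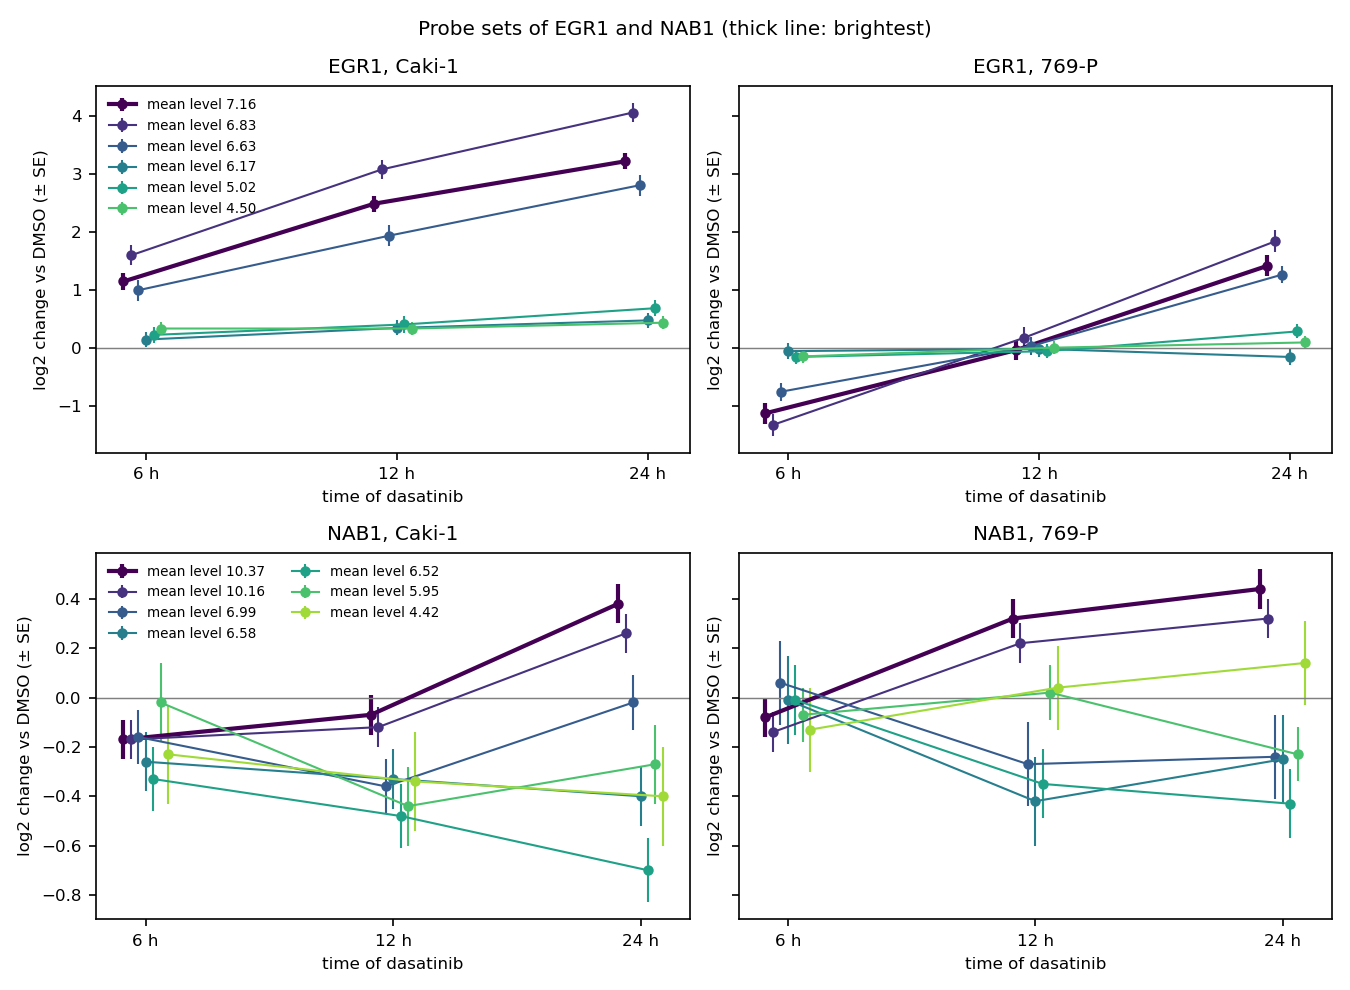
Log2 change against DMSO (± SE) of each probe set of EGR1 and NAB1 at 6, 12 and 24 h of dasatinib, coloured by mean level and with the brightest as a thick line. The 3 brightest EGR1 probe sets run together, the others lie between -0.15 and 0.69, and at 24 h the 2 brightest NAB1 probe sets lie above 0 while the next 3 lie at or below it.

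EGR3, a close relative of EGR1 that binds the same kind of site, gave no call in any of the 16 comparisons tested. Its signals lay between 5.46 and 5.80 on all 24 arrays, just above the filters of 5.379 in Caki-1 and 5.361 in 769-P. Changes against DMSO were 0.06 to 0.12 in Caki-1 and -0.04 to -0.01 in 769-P, with 95% intervals no wider than -0.26 to 0.36. The other 3 probe sets of EGR3 had means of 3.58 to 4.15, under the filter. At these levels a small change in EGR3 was not detectable.

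NAB2, which binds EGR proteins and represses their targets, rose early in 769-P and late in Caki-1, by small amounts. In 769-P its signals were 6.24 to 6.37 under DMSO and 6.69 to 7.18 on all 9 dasatinib arrays, which did not overlap. NAB2 rose there by 0.54 ± 0.12 at 6 h, 0.53 ± 0.12 at 12 h and 0.60 ± 0.12 at 24 h (adjusted p = 0.00214, 0.00135 and 3.3e-04 in limma). In Caki-1 it stood at 0.14 ± 0.11 and 0.25 ± 0.11 at 6 h and 12 h, with adjusted p = 0.42 and 0.0675 in limma, and rose by 0.41 ± 0.11 at 24 h. The difference between the lines in the NAB2 change was not called at 6, 12 or 24 h (adjusted p = 0.143, 0.256 and 0.365 in limma). NAB2 was read from 1 probe set.

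NAB1, the other corepressor, depended on the probe set. Its brightest probe set rose by 0.38 ± 0.08 at 24 h in Caki-1, and by 0.32 ± 0.08 at 12 h and 0.44 ± 0.08 at 24 h in 769-P. Its signals were 10.80 to 10.83 under DMSO and 11.12 to 11.26 at 24 h in Caki-1, and 9.63 to 9.84 and 10.07 to 10.22 in 769-P, without overlap. The second brightest, with a mean of 10.16, gave 0.26, 0.22 and 0.32 in the same comparisons. The 5 dimmer ones, with means of 4.42 to 6.99, gave -0.70 to -0.02 at 24 h in Caki-1 and -0.43 to 0.14 at 24 h in 769-P. With the mean of all 7 probe sets, NAB1 stood at -0.16, -0.06 and -0.03 in these 3 comparisons, with none called. Under DMSO all 7 gave a higher NAB1 level in Caki-1 than in 769-P, by 0.70 to 1.10.

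PHLDA1, a pleckstrin-homology-like protein induced by ERK signalling, fell in both lines at every time, and further in 769-P. Its signals in 769-P were 11.01, 10.95 and 10.86 under DMSO, 8.97, 8.86 and 9.26 at 6 h, 8.71, 8.94 and 9.13 at 12 h, and 9.71, 9.2 and 9.39 at 24 h. Each dasatinib array lay more than 1 log2 unit below each DMSO array. It fell there by 1.92 ± 0.13, 2.02 ± 0.13 and 1.51 ± 0.13 (adjusted p = 3.7e-08, 9.8e-09 and 9.9e-08 in limma). In Caki-1 the DMSO signals were 11.87, 11.59 and 11.55, and the dasatinib arrays lay between 10.52 and 11.28, again with no overlap. PHLDA1 fell there by 0.66 ± 0.16, 0.75 ± 0.16 and 0.82 ± 0.16. The other 3 PHLDA1 probe sets gave -2.06 to -1.35 in 769-P and -0.69 to -0.37 in Caki-1 over the 3 times. They correlated with the brightest at 0.97 to 0.99 over the 24 arrays. Within Caki-1 the values were 0.77, 0.99 and 0.90, and within 769-P 0.97, 0.98 and 0.99.

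IER3, an early response gene tied to ERK signalling and cell survival, fell in 769-P at every time and rose slightly in Caki-1 at 24 h. The 769-P signals were 10.32, 10.48 and 10.3 under DMSO, 8.96, 8.62 and 9.0 at 6 h, 8.91, 9.21 and 9.19 at 12 h, and 9.63, 9.24 and 9.62 at 24 h. All dasatinib arrays lay below all DMSO arrays. IER3 fell by 1.51 ± 0.12, 1.26 ± 0.12 and 0.87 ± 0.12 (adjusted p = 2.4e-07, 5.7e-07 and 1.8e-05 in limma). In Caki-1 all 12 arrays lay between 12.58 and 13.14. The changes there were -0.07 ± 0.06 at 6 h and 0.08 ± 0.06 at 12 h, neither called, and IER3 rose by 0.36 ± 0.06 at 24 h (adjusted p = 1.2e-04 in limma).

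IER2, a nuclear protein of the serum response, fell steeply in 769-P and at 6 h in Caki-1. Its 769-P signals were 10.59, 10.46 and 10.11 under DMSO and 8.95 to 9.46 on the 9 dasatinib arrays, all below. IER2 fell by 1.35 ± 0.11 at 6 h, 1.28 ± 0.11 at 12 h and 1.07 ± 0.11 at 24 h. In Caki-1 the signals were 9.25, 9.35 and 9.22 under DMSO, 8.61, 8.77 and 8.8 at 6 h, 8.84, 9.27 and 9.39 at 12 h, and 9.69, 9.76 and 9.67 at 24 h. IER2 fell by 0.55 ± 0.11 at 6 h (adjusted p = 0.00198 in limma), stood at -0.11 ± 0.11 at 12 h, and rose by 0.43 ± 0.11 at 24 h (adjusted p = 0.00339 in limma). From 6 h to 24 h it rose by 0.98 ± 0.11 in Caki-1. In 769-P the same step was 0.28 ± 0.11, with adjusted p = 0.0547 in limma and 0.0366 with the replicate number as a block. The labels do not state a pairing. Of 14 other settings, leaving out an array included, 5 called this step, the block among them, and 9 did not.

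IER5, a regulator of heat shock factor and phosphatase activity, rose first and fell later in 769-P and fell in Caki-1. In 769-P it rose by 0.33 ± 0.08 at 6 h (8.81 to 9.01 against 8.52 to 8.63 under DMSO, no overlap), stood at 0.21 ± 0.08 at 12 h (adjusted p = 0.0515 in limma), and fell by 0.32 ± 0.08 at 24 h. In Caki-1 it stood at -0.27 ± 0.11 at 6 h (adjusted p = 0.0864 in limma) and fell by 0.47 ± 0.11 at 12 h and 0.78 ± 0.11 at 24 h. Its second probe set gave 0.26, 0.09 and -0.14 in 769-P and -0.33, -0.48 and -0.66 in Caki-1, the same signs at each time.

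**Figure D3:**
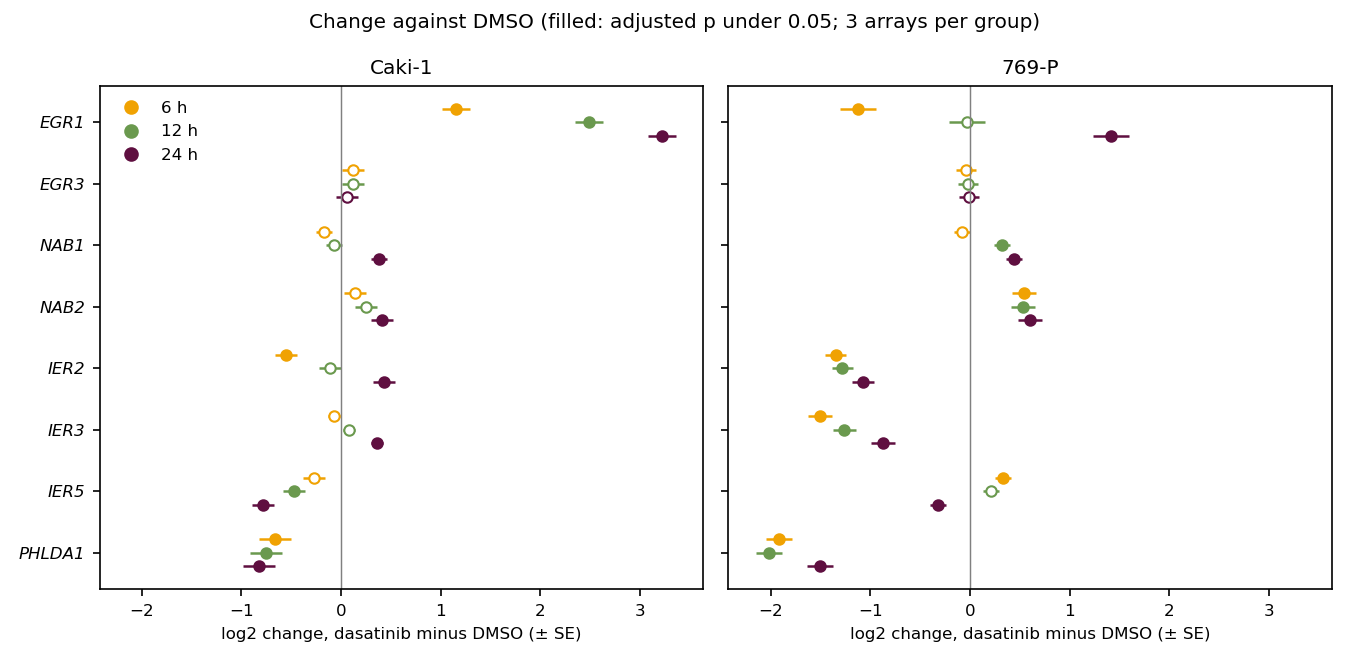
Log2 change against DMSO (± SE, 3 arrays per group) of the 8 genes at 6, 12 and 24 h in each line, with filled points for an adjusted p under 0.05. PHLDA1 lies left of 0 at every time in both lines, IER2 and IER3 do so in 769-P, and EGR1 moves to the right with time in both.

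All 8 measured genes passed the filter in both lines. In Caki-1, 1 member rose and 2 fell at 6 h, where 12.3% of 12423 genes tested rose and 14% fell (26.3% in either direction). At 12 h 1 rose and 2 fell, beside 24.1% and 24.4% of genes (48.4%), and at 24 h 5 rose and 2 fell, beside 32.9% and 29.9% (62.8%). In 769-P, 2 members rose and 4 fell at 6 h, beside 16.4% and 14.5% of 12354 genes (30.9%). At 12 h 2 rose and 3 fell, beside 24.9% and 22.6% (47.5%), and at 24 h 3 rose and 4 fell, beside 31.1% and 24.6% (55.7%). The median change of the 8 was -0.12, 0 and 0.37 in Caki-1 and -0.60, -0.03 and -0.16 in 769-P, beside medians of 0.01 to 0.08 over all genes. With 8 members, a share of 3 called in Caki-1 at 6 h and 12 h lay close to or under the share of all genes.

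The dasatinib times were also compared with each other, without the DMSO arrays. From 6 h to 12 h, EGR1 and IER2 rose in Caki-1 (12.5% of genes rose, 14.5% fell, 26.9% either way), and EGR1 and NAB1 in 769-P (8.91%, 10.2% and 19.1%). The IER2 step of 0.44 ± 0.11 was not called without array 3 of Caki-1 at 12 h (0.33, adjusted p = 0.0561 in limma). From 12 h to 24 h, EGR1, NAB1, IER2 and IER3 rose in Caki-1, by 0.73 ± 0.14, 0.45 ± 0.08, 0.54 ± 0.11 and 0.28 ± 0.06 (10.9% of genes rose, 14.2% fell, 25.2% either way). In 769-P, EGR1, IER3 and PHLDA1 rose and IER5 fell by 0.53 ± 0.08 (17%, 10.8% and 27.7%). There the IER3 rise of 0.39 ± 0.12 was not called without array 1 at 12 h (0.29), array 1 at 24 h (0.32) or array 3 at 24 h (0.33), nor the PHLDA1 rise of 0.51 ± 0.13 without array 1 at 12 h (0.40).

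From 6 h to 24 h, 5 members rose and IER5 fell in Caki-1 (28.1% of genes rose, 25.6% fell, 53.7% either way), and 4 rose and IER5 fell in 769-P (25.8%, 18.5% and 44.3%). EGR1 rose by 2.07 ± 0.14 and 2.55 ± 0.18, NAB1 by 0.55 ± 0.08 and 0.52 ± 0.08, and IER3 by 0.43 ± 0.06 and 0.63 ± 0.12 in Caki-1 and 769-P. With the mean of its probe sets NAB1 gave 0.03 and 0.02 here, and 0.14 from 12 h to 24 h in Caki-1 and -0.01 from 6 h to 12 h in 769-P, none of them called. The IER3 rise from 12 h to 24 h in Caki-1 had adjusted p = 0.0517 in limma with all 24 arrays in 1 fit. The NAB2 rise in Caki-1 of 0.28 ± 0.11, on arrays that overlapped, was not called without a filter (adjusted p = 0.0638 in limma) or with arrays centred on their median (0.25, adjusted p = 0.0651 in limma). It was also lost without array 2 (0.30) or 3 (0.20) at 6 h or array 1 (0.16) or 3 (0.31) at 24 h. The PHLDA1 rise in 769-P of 0.41 ± 0.13, also with overlap, was not called without array 1 (0.38) or 2 (0.32) at 6 h or array 1 at 24 h (0.27).

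The difference between the lines was tested as the change in Caki-1 less that in 769-P, in a fit to all 24 arrays. EGR1 differed by 2.27 ± 0.25 at 6 h, 2.52 ± 0.25 at 12 h and 1.79 ± 0.25 at 24 h (adjusted p = 7.7e-07, 8.1e-08 and 4.6e-06 in limma). With the mean of all 6 EGR1 probe sets these were 1.33, 1.41 and 1.16, all called. IER3 differed by 1.43 ± 0.15, 1.34 ± 0.15 and 1.23 ± 0.15, and IER2 by 0.81 ± 0.17, 1.17 ± 0.17 and 1.5 ± 0.17. PHLDA1 differed by 1.26 ± 0.23, 1.26 ± 0.23 and 0.69 ± 0.23. IER5 differed in the opposite sense, by -0.60 ± 0.14, -0.68 ± 0.14 and -0.46 ± 0.14. NAB1 was called at 12 h (-0.39 ± 0.11) and not at 6 h or 24 h. That call was absent with the mean of its probe sets (-0.24), without array 1 of Caki-1 at 12 h (-0.28) and without array 2 of 769-P under DMSO (-0.35). NAB2 was not called, at -0.40 ± 0.16, -0.28 ± 0.16 and -0.19 ± 0.16, with 95% intervals of -0.73 to -0.07, -0.61 to 0.05 and -0.52 to 0.14 and adjusted p = 0.143, 0.256 and 0.365 in limma. At 6 h 4 members had a called difference above 0 and 1 a called difference below 0, beside 3.68% and 4.42% of 12864 genes (8.09% in all). At 12 h there were 4 and 2 such calls, beside 8.67% and 10.3% (18.9%), and at 24 h 4 and 1, beside 13.8% and 22.1% (36%). The PHLDA1 call at 24 h was lost without array 3 of Caki-1 under DMSO (0.63), array 1 of Caki-1 at 24 h (0.47) or array 2 of 769-P at 24 h (0.57).

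**Figure D4:**
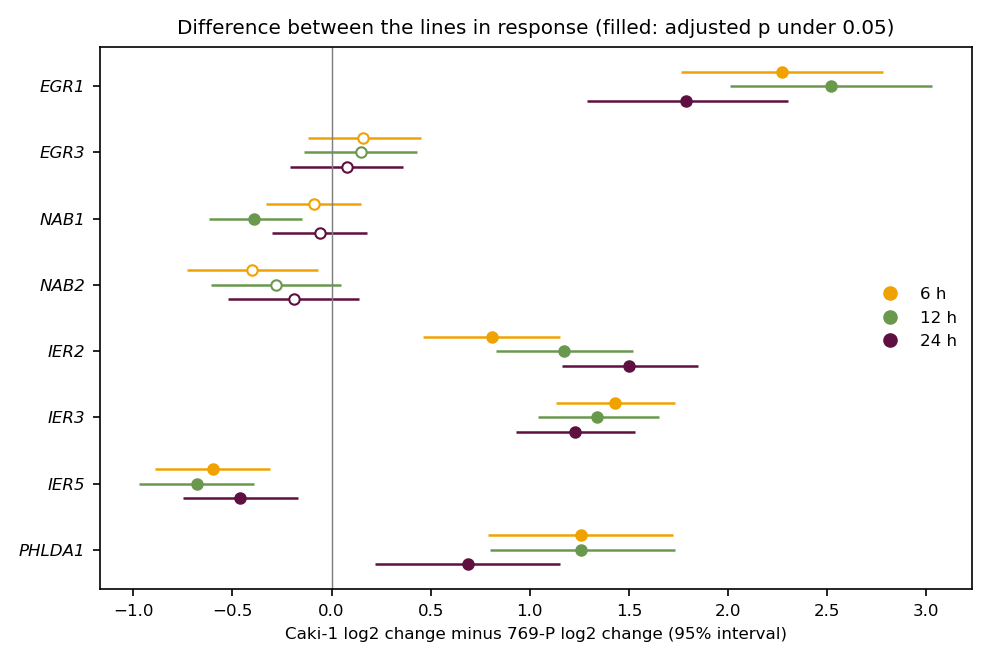
Difference between the lines in the response to dasatinib, as the log2 change in Caki-1 less that in 769-P with its 95% interval, at 6, 12 and 24 h. EGR1, IER2, IER3 and PHLDA1 lie right of 0 at all times, IER5 lies left of it, and the EGR3 and NAB2 points are open at each time.

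The lines also differed before any drug. Under DMSO, IER3 was 2.34 ± 0.10 higher in Caki-1 than in 769-P (12.66 to 12.77 against 10.3 to 10.48), the widest gap among the 8. NAB1, IER5, PHLDA1 and NAB2 were higher in Caki-1 too, by 1.10 ± 0.08, 0.92 ± 0.10, 0.73 ± 0.16 and 0.30 ± 0.11. IER2 and EGR1 were lower in Caki-1, with differences of -1.11 ± 0.12 and -0.83 ± 0.17. So 5 members were higher and 2 lower in Caki-1, where 28.8% of genes were higher and 29.9% lower (58.7% in all). The NAB2 call was lost without array 2 or 3 of Caki-1 (0.30 each) or array 2 of 769-P (0.26). The genes that fell furthest in 769-P did not share a DMSO direction, since IER2 started higher there while IER3 and PHLDA1 started lower.

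The relatives of the members were read in the same way. IER5L, a paralogue of IER5, rose by 0.97 ± 0.11, 1.45 ± 0.11 and 1.82 ± 0.11 in Caki-1 and by 1.99 ± 0.10, 1.93 ± 0.10 and 2.05 ± 0.10 in 769-P. IER5 itself ended lower in both lines, by 0.78 in Caki-1 and 0.32 in 769-P at 24 h. PHLDA2, a small relative of PHLDA1, fell by 0.90 ± 0.11, 1.66 ± 0.11 and 1.61 ± 0.11 in Caki-1 and by 1.61 ± 0.17, 1.57 ± 0.17 and 1.63 ± 0.17 in 769-P. PHLDA3, a p53 target, fell by 0.36 ± 0.10, 0.24 ± 0.10 and 0.24 ± 0.10 in 769-P and rose by 0.17 ± 0.07 at 24 h in Caki-1. WT1, a zinc-finger factor with EGR-like fingers, was below the filter in Caki-1, at 3.56 under DMSO. In 769-P, where it stood at 8.32, WT1 fell by 0.73 ± 0.14 at 6 h and stood above DMSO by 0.40 ± 0.14 at 12 h and 0.97 ± 0.14 at 24 h, both called. EGR4 lay under the filter in both lines, at 4.59 to 4.75.

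Among other immediate-early genes, 38 of 40 listed were measured, and 36 were tested in Caki-1 and 35 in 769-P. In Caki-1, 7 rose and 13 fell at 6 h, 11 and 15 at 12 h, and 14 and 11 at 24 h, with medians of -0.03, 0.00 and 0.06. In 769-P, 6 rose and 21 fell at 6 h, 5 and 17 at 12 h, and 10 and 15 at 24 h, with medians of -0.54, -0.29 and -0.10. The share that fell in 769-P was 60%, 48.6% and 42.9%, beside 14.5%, 22.6% and 24.6% of all genes. In Caki-1 it was 36.1%, 41.7% and 30.6%, beside 14%, 24.4% and 29.9%, so at 24 h it lay near that of all genes. The share that rose was 19.4%, 30.6% and 38.9% in Caki-1, beside 12.3%, 24.1% and 32.9%. In 769-P 17.1%, 14.3% and 28.6% rose, beside 16.4%, 24.9% and 31.1%. FOSL1, an AP-1 subunit, fell at each time in both lines, by 3.0 ± 0.14 in Caki-1 at 24 h and 3.02 ± 0.22 in 769-P at 6 h. CCN1, a matricellular protein, fell by 3.54 ± 0.22 and 3.43 ± 0.27 at 6 h, and CCN2, its relative, by 3.60 ± 0.16 in Caki-1. HBEGF, an EGF receptor ligand, fell by 3.31 ± 0.21 in 769-P at 12 h and by 0.63 ± 0.18 in Caki-1. MYC fell by 3.51 ± 0.16 in 769-P and 1.13 ± 0.11 in Caki-1 at 6 h. DUSP1, a MAP kinase phosphatase, rose like EGR1 in Caki-1, by 1.88 ± 0.15, 2.09 ± 0.15 and 2.48 ± 0.15, and in 769-P it rose by 2.37 ± 0.07 at 6 h, when EGR1 fell.

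ERK feedback and output genes, 20 in the list, were tested in 18 cases in Caki-1 and 17 in 769-P. In Caki-1, 4 rose and 8 fell at 6 h, 5 and 9 at 12 h, and 5 and 5 at 24 h. In 769-P, 1 rose and 12 fell at 6 h, 2 and 9 at 12 h, and 5 and 8 at 24 h, with medians of -1.04, -0.60 and -0.27. The share that fell in 769-P was 70.6%, 52.9% and 47.1%, beside 14.5%, 22.6% and 24.6% of all genes. In Caki-1 it was 44.4%, 50% and 27.8%, beside 14%, 24.4% and 29.9%. The share that rose in Caki-1 was 22.2%, 27.8% and 27.8%, beside 12.3%, 24.1% and 32.9%, and at 24 h it was under that of all genes. In 769-P 5.88%, 11.8% and 29.4% rose, beside 16.4%, 24.9% and 31.1%. DUSP6, a phosphatase of ERK, rose in Caki-1 and in 769-P fell at 6 h and rose at 12 h and 24 h, with changes of 0.88 ± 0.18, 1.15 ± 0.18 and 1.5 ± 0.18 in Caki-1 and -0.48 ± 0.15, 0.63 ± 0.15 and 2.35 ± 0.15 in 769-P. DUSP5, another, gave 0.75 ± 0.17, 1.14 ± 0.17 and 1.55 ± 0.17 in Caki-1 and -1.80 ± 0.15, -0.60 ± 0.15 and 0.58 ± 0.15 in 769-P. CCND1, the G1 cyclin, fell by 2.51 ± 0.17 in Caki-1 and 3.31 ± 0.14 in 769-P at 12 h, and EPHA2, a receptor kinase, by 1.88 ± 0.11 and 2.39 ± 0.14 at 6 h. ETV5, an ETS factor, fell by 2.65 ± 0.22 in 769-P at 12 h, and EPHA4 rose by 1.79 ± 0.16 in Caki-1 at 24 h.

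Of 20 genes listed for factors and kinases that induce EGR1, 14 were tested in each line. At 6, 12 and 24 h, 1, 3 and 4 rose and 4, 6 and 5 fell in Caki-1, and 2, 2 and 3 rose and 3, 4 and 5 fell in 769-P. The share that fell in Caki-1 was 28.6%, 42.9% and 35.7%, beside 14%, 24.4% and 29.9% of all genes. In 769-P it was 21.4%, 28.6% and 35.7%, beside 14.5%, 22.6% and 24.6%. The share that rose was 7.14%, 21.4% and 28.6% in Caki-1, beside 12.3%, 24.1% and 32.9%. In 769-P 14.3%, 14.3% and 21.4% rose, beside 16.4%, 24.9% and 31.1%. With 14 genes, 1 gene makes 7.14% of the list, and the 3 times of a line share the same genes and DMSO arrays. These shares were not tested, and no pattern is read from them. SRF fell by 0.35 ± 0.07, 0.32 ± 0.07 and 0.24 ± 0.07 in Caki-1 and by 1.16 ± 0.10, 0.72 ± 0.10 and 0.78 ± 0.10 in 769-P. ELK3, an ETS partner of SRF, fell by 0.49 ± 0.05 in Caki-1 at 6 h and 1.38 ± 0.09 in 769-P at 12 h. MAP2K1, the ERK kinase MEK1, fell by 0.80 ± 0.07 in 769-P at 12 h, and MAPK3, which encodes ERK1, rose by 1.18 ± 0.13 in Caki-1 at 24 h. RPS6KA5, a MAP-kinase-activated kinase, fell by 0.80 ± 0.12 in Caki-1 at 24 h and rose by 0.95 ± 0.13 in 769-P at 12 h. In Caki-1 RPS6KA3 fell by 0.73 ± 0.12 at 24 h and CREB1 rose by 0.58 ± 0.09 at 12 h.

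Among genes reported elsewhere as EGR1 targets, calls were made in both directions. Of 25 listed, 19 were tested in Caki-1, where 4 rose and 5 fell at 6 h, 7 and 6 at 12 h, and 7 and 5 at 24 h. In 769-P, 18 were tested, of which 4 rose and 7 fell at 6 h, 5 and 7 at 12 h, and 9 and 7 at 24 h. Their medians ran from -0.02 to 0.18 in Caki-1 and from -0.09 to 0.26 in 769-P. At 6 h 21.1% rose and 26.3% fell in Caki-1, beside 12.3% and 14% of all genes. In 769-P it was 22.2% and 38.9%, beside 16.4% and 14.5%. At 12 h 36.8% and 31.6% did so in Caki-1, beside 24.1% and 24.4%, and 27.8% and 38.9% in 769-P, beside 24.9% and 22.6%. At 24 h 36.8% rose and 26.3% fell in Caki-1, near the 32.9% and 29.9% of all genes. In 769-P 50% and 38.9% did so at 24 h, beside 31.1% and 24.6%. NDRG1, a stress and differentiation gene, rose by 3.47 ± 0.22 and 3.40 ± 0.09 at 24 h in Caki-1 and 769-P, and TNFSF10, the death ligand TRAIL, by 2.26 ± 0.12 and 2.14 ± 0.15. ATF3 rose by 2.10 ± 0.15 in 769-P at 24 h. THBS1, thrombospondin, fell by 3.28 ± 0.14 in 769-P at 6 h and by 2.21 ± 0.23 in Caki-1 at 12 h. F3, tissue factor, fell by 2.0 ± 0.23 in Caki-1 at 12 h.

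Across the 8 group means, the genes most like EGR1 among 3629 with an SD of at least 0.5 included EIF4E3 and JUP, which encodes plakoglobin (r = 0.941 each). Those most like IER3 were TANC2, DDX42 and MAP7D3 (0.991, 0.991 and 0.99), and those most like PHLDA1 were MSH6, TNFSF9 and TOR4A (0.989, 0.985 and 0.985). These are descriptions over 8 points that share lines, arrays and controls. Between members, IER3 correlated with NAB1 at 0.90 and with PHLDA1 at 0.88, and EGR1 with PHLDA1 at 0.16. These values include the gap between the lines, and IER3, NAB1 and PHLDA1 were all higher in Caki-1 under DMSO. In 769-P IER3 fell by 1.51, 1.26 and 0.87 against DMSO, while NAB1 gave -0.08, 0.32 and 0.44. IER3 and PHLDA1 both fell in 769-P, but in Caki-1 at 24 h IER3 rose by 0.36 and PHLDA1 fell by 0.82.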

How the data were processed

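The deposited values of 24 PrimeView arrays are log2 signals, one value for each probe set on an array. Per the submitters' processing notes MAS5 was named, with no role. PrimeView carries perfect-match probes only, and how the deposited log2 signals were computed and scaled is not given in the sources used here. Array medians differed by 0.075. With arrays, their number limits the precision. The platform annotation, joined to RefSeq by Entrez identifier, left 44988 of 49395 probe sets with 1 gene; 1832 had several, 2473 had no gene here and 102 array controls were left out.

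Genes whose mean over the arrays of a line lay above the 40th percentile of all probe sets were tested (in either line for differences between lines). Group means were fitted in limma 3.58.1 (R 4.3.3; data.table, version 1.17.8) with an intensity trend, within a line (8 residual degrees of freedom) or over all arrays (16), and p-values were adjusted by Benjamini-Hochberg over all genes. The fits were tested on simulated data with known changes.

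Equally numbered arrays were checked as pairs by correlating their deviations from the group means. Every pair was over 0.1 in 6 of 12 comparisons within a line, among them 769-P at 6 h (0.11 to 0.36) and 24 h (0.12 to 0.17) against DMSO and 24 h against 6 h (0.10 to 0.19). A replicate block, other scalings, filters, variance models and probe set summaries, and leaving out each array were tried. The members and gene lists were chosen with earlier results of these data known. All 9 members were to be named. Of each list, the rule took up to 4 called genes per line with the largest change against DMSO, and all 5 relatives. It also took the 3 genes most like EGR1, IER3 and PHLDA1. Of those most like EGR1, 1 is not reported here. Values of these genes at other times, or in the line whose rule did not name them, were added after they were seen. Listed genes without a probe set of their own were not analysed here.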

Additional observations from a re-analysis of the deposited data

Results flagged for a closer look

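Several members responded differently in Caki-1 and 769-P by the interaction test in limma over all 24 arrays, and each such value is the log2 change in Caki-1 less that in 769-P. At 6 h the differences were 2.27 for EGR1, 0.81 for IER2, 1.43 for IER3, -0.60 for IER5 and 1.26 for PHLDA1. At 12 h they were 2.52 for EGR1, -0.39 for NAB1, 1.17 for IER2, 1.34 for IER3, -0.68 for IER5 and 1.26 for PHLDA1. At 24 h they were 1.79 for EGR1, 1.5 for IER2, 1.23 for IER3, -0.46 for IER5 and 0.69 for PHLDA1. The lines share no arrays, but within a line the same 3 DMSO arrays enter at each time, so the 3 values of a gene are not independent. The NAB1 value was read from its brightest probe set and was -0.24, not called, with the mean of all 7.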

How the results depend on the processing

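Of 964 member values under alternatives that keep all arrays, 932 kept direction and call, 8 lost and 14 gained a call, and 10 changed sign. Of the latter, 4 had been called, all NAB1 with the mean of its probe sets, of which 5 are dimmer: -0.16 at 24 h in Caki-1, -0.06 and -0.03 at 12 h and 24 h in 769-P, and -0.01 for 12 h against 6 h in 769-P. The others were uncalled values near 0. With the mean of probe sets these were EGR1 in 769-P at 12 h (0.02), EGR3 in 769-P at 24 h (0.03), EGR3 in Caki-1 from 6 h to 24 h (0.02), NAB1 in Caki-1 from 6 h to 12 h (-0.12) and PHLDA1 in Caki-1 from 12 h to 24 h (0.05), and with quantile normalization EGR3 in Caki-1 at 24 h (-0.01).

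Requiring a 2-fold change left 1 member called at each time in Caki-1, 3 at 12 h and 24 h in 769-P, and 3 for the difference between lines at 6 h and 24 h and under DMSO. It left 1 for 12 h and 24 h against 6 h in each line and for 24 h against 12 h in 769-P, and 0 for 24 h against 12 h in Caki-1, where limma without the fold called 4. EGR1, IER2, IER3 and PHLDA1 stayed called in 769-P at 6 h and for the difference between lines at 12 h. The share of all genes under the 2-fold rule was not counted, so these member counts have no background beside them. The mean of probe sets called 5 members in Caki-1 at 12 h in place of 3, and 1 in place of 2 for 12 h against 6 h in 769-P. The filter at the 60th percentile also called 1 there, since EGR1 lay under that filter in 769-P. With that filter EGR1 and NAB2 were not tested in any comparison within 769-P, and EGR3 was tested in none. The 964 values leave these out. The replicate block changed calls of IER2 from 6 h to 24 h in 769-P (given above), of IER5 from 12 h to 24 h in Caki-1 (-0.31, adjusted p = 0.0299) and of NAB2 between lines under DMSO (0.29, adjusted p = 0.0628), and no other.

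Leaving out 1 array at a time gave 1 to 4 members for 12 h against 6 h in Caki-1 (2227 to 3812 of all genes) and 2 to 4 for 24 h against 12 h in 769-P. Without array 1 of Caki-1 at 12 h, IER3 was called there against DMSO (0.16, adjusted p = 0.0194 in limma). From 6 h to 12 h IER3 (0.23) and NAB1 (0.21) were then also called in Caki-1 (adjusted p = 0.00323 and 0.0217 in limma). No called value changed sign. Uncalled values spanned -0.13 to 0.04 (NAB1) and -0.22 to 0.05 (IER2) in Caki-1 at 12 h, and in 769-P -0.27 to 0.13 (EGR1, 12 h), -0.07 to 0.01 (EGR3, 12 h) and -0.06 to 0.02 (EGR3, 24 h). Between times they spanned -0.29 to 0.10 for PHLDA1 in Caki-1 (24 h against 12 h). In 769-P they spanned -0.01 to 0.06 (EGR3), -0.09 to 0.04 (NAB2) and -0.20 to 0.01 (PHLDA1) for 12 h against 6 h, -0.01 to 0.02 (EGR3) and -0.05 to 0.14 (NAB2) for 24 h against 12 h, and -0.06 to 0.13 (NAB2) for 24 h against 6 h. The causes were not tested. EGR3 and the dim probe sets lie close to the array's lower range, which limits what they can show.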
